A study of Mus musculus with 6 samples.

Results

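The genes of the PI3K, Akt and mTOR pathway were examined for the binding of Foxa1 and Foxa2, forkhead transcription factors that can open closed chromatin. The set held 32 of 21887 protein-coding RefSeq genes: 14 kinases (catalytic subunits and downstream kinases), 10 regulatory and complex subunits (Rheb, the small GTPase that switches mTOR on, was counted with them) and 8 brakes, of which 5 were phosphatases and 3 were other inhibitors. A bound region belonged to a gene when its summit lay inside the gene, or else when that gene had the nearest end within 100 kb (build mm10). No region was counted for more than 1 of the 32 genes.

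PI3K lipid kinases phosphorylate inositol lipids of the cell membrane, and the class I enzymes make the messenger that brings Akt to the membrane. There Akt is switched on by Pdpk1 and by the Rictor-containing mTOR complex, while the Rptor-containing complex drives protein synthesis and growth. Phosphatases of the lipids or of Akt, the Tsc1 and Tsc2 complex and Deptor hold the pathway back. The pathway is often overactive in prostate cancer, and Foxa1 is known there as a partner of the androgen receptor.

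The study profiled chromatin by immunoprecipitation and sequencing (ChIP-seq) with Foxa1 and Foxa2 antibodies and as input, from mouse prostate tumor cells of strain C57BL/6, after tamoxifen for 2 weeks or for 6 months. That gave 6 libraries, 1 in each group. The protocol dissects 3 prostates. The sources used here do not give the animals' age, the transgenes that tamoxifen acted on, or whether libraries shared prostates. Without replicates no difference could be set against biological spread, so the values are described without a test between them, and the exact Clopper-Pearson intervals (95%) on shares cover counting error only.

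The lists held 54226 Foxa1 regions at 2 weeks, 35869 Foxa1 regions at 6 months and 34942 Foxa2 regions at 6 months. The Foxa2 list at 2 weeks held 1 region, which lay at none of the 32 genes. To compare numbers, each long list was limited to its 34942 strongest regions by the authors' -log10 q, which reached down to 4.52, 1.53 and 1.31 in the order given. In tissue chromatin, fewer cells with a bound site and weaker binding in each cell cannot be told apart. The 6-month lists hold weaker regions than the 2-week list, and the lists do not show how deeply each library was sequenced, so the depth is unknown. The labelled cell type could be checked only through binding: of 10 prostate luminal genes, 10, 6 and 5 had a region in the 3 lists, of 10 immune genes 3, 1 and 0, and of 7 seminal vesicle and urothelial genes 3, 0 and 0. Over all protein-coding genes 43.0, 33.5 and 35.4% had a region in the 3 lists. Regions at luminal genes numbered 43, 26 and 16. These numbers show binding by position, not expression, and their part in the results was not tested.

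The upstream stretches of 3 kinase genes are shown because a region of at least 2 lists overlapped each of them and each holds forkhead letters. They come from the RefSeq promoter table (GRCm38.p6, the assembly of mm10) and end at the base before the gene's outermost start site, or before the gene itself for Pik3cg. Capitals mark forkhead letters, searched on both strands: TGTTTAC and its variant TATTTAC, and likewise TGTTTGC with its variant TATTTGC. The Akt1 stretch is chr12:112674885-112675134 on the minus strand, the Akt2 stretch chr7:27591302-27591551 on the plus strand, and the Pik3cg stretch chr12:32208678-32208909 on the minus strand.
Akt1: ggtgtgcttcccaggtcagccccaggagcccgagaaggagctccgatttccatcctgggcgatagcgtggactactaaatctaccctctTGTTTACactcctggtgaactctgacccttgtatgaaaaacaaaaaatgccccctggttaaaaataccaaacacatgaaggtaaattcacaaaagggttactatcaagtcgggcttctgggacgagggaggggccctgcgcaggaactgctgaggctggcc
Akt2: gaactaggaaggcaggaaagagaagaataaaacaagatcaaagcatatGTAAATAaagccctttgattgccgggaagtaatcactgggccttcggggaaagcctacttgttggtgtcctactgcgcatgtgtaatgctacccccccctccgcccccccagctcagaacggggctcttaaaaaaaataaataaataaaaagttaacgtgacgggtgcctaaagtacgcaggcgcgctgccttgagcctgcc
Pik3cg: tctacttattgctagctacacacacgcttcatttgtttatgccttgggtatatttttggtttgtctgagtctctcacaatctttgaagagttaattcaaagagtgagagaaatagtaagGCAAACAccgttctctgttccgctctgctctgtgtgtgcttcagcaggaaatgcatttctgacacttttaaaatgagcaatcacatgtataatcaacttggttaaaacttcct

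Akt1 and Akt2 encode Akt kinases, the central effectors of the pathway. At Akt1 the last of the letters stood 155 bp before the start site, and the summits lay 74 bp away in the 2-week Foxa1 list and 131 bp away in the 6-month Foxa1 list. The 6-month Foxa2 region overlapped the Akt1 promoter without covering the letters. These Akt1 regions had a -log10 q of 10.1 (Foxa1, 2 weeks), 2.25 (Foxa1, 6 months) and 1.95 (Foxa2). Both 6-month regions were thus among the weakest of their lists. At Akt2 the last of them stood 196 bp before the start site and the regions of all 3 lists covered them, with summits 51 bp (Foxa1, 2 weeks), 124 bp (Foxa1, 6 months) and 96 bp (Foxa2) away. Pik3cg encodes the gamma catalytic subunit, known mainly from white blood cells. Its letters ended 125 bp before the start site and were covered by the 2-week Foxa1 region (summit 87 bp away) and by the 6-month Foxa2 region (48 bp), while the 6-month Foxa1 list had no region there. The -log10 q was 8.34 for this Foxa1 region and 2.47 for the Foxa2 region, which was among the weaker of its list.

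RefSeq promoters, here 250 bp before to 50 bp after a start site, were on hand for 28 of the 32 genes, in 47 windows. Pik3c3, Sgk3, Pik3r6 and Deptor had no entry. A region overlapped 6, 3 and 4 of the 47 windows (12.8, 6.38 and 8.51%), beside 3.05, 2.52 and 2.36% of all 32851 windows. Windows of 1 gene can overlap, and both Pik3cg windows were among those counted. Forkhead letters stood in 6 of the 47 windows (12.8%) and in 13.5% of all windows, so the letters were about as frequent here as elsewhere. Apart from Akt1, Akt2 and Pik3cg, the windows with a region belonged to Phlpp1 and an internal Sgk1 start site (Foxa1 at 2 weeks) and to Rptor (Foxa1 at 6 months).

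Most of the 32 genes had a region in each list. Foxa1 regions were found at 24 genes at 2 weeks and at 18 genes at 6 months, and Foxa2 regions at 19 genes at 6 months. Over all genes these shares were 43.0, 33.5 and 35.4%. The genes of the pathway are long: their median length was 81.8 kb against 17.2 kb, and their median territory, the stretch of genome a gene takes regions from, 109 kb against 45.8 kb. Their regions numbered 129, 93 and 97, which is 25.33, 18.26 and 19.04 per Mb of territory against 16.1, 15.7 and 15.7 per Mb over all genes. The excess over all genes per Mb was thus largest in the 2-week Foxa1 list. In all 3 lists 17 genes had a region. Another 6 had one only in the 2-week Foxa1 list (Pik3c2a, Pik3c3, Pdpk1, Pik3r3, Rictor and Phlpp2), Pik3r4 only in the 6-month Foxa1 list, Pik3r6 only in the Foxa2 list, and Tsc2 in the 2-week Foxa1 and the Foxa2 lists. No region was assigned to Pik3cd, Pik3r2, Mlst8, Rheb, Inpp5d or Tsc1 in any of the 3.

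**Figure D1:**
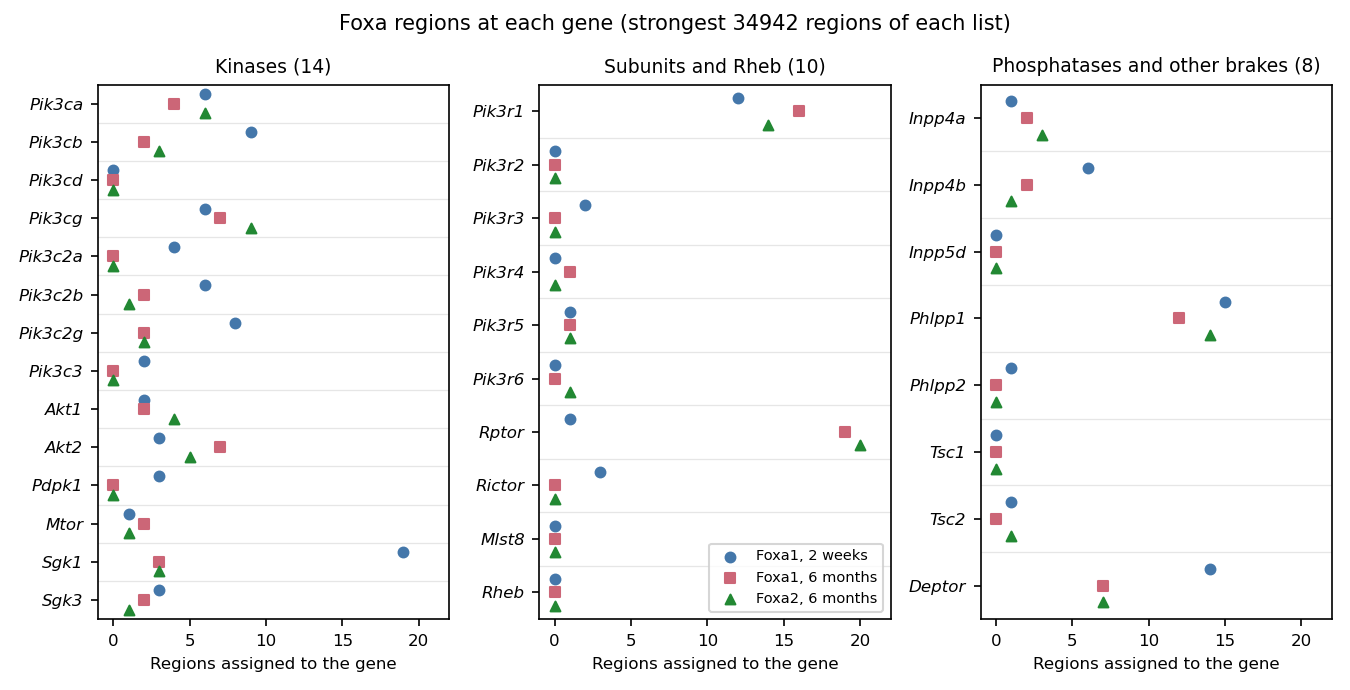
Number of regions assigned to each of the 32 genes (horizontal axis), by role, in the equal-length lists of Foxa1 at 2 weeks (circles), Foxa1 at 6 months (squares) and Foxa2 at 6 months (triangles). Rptor stands at 1 region at 2 weeks and at 19 and 20 at 6 months, while Sgk1 stands at 19 and then at 3 and 3.

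Between the Foxa1 lists, 10 of the 32 genes had at least 3 fewer regions at 6 months than at 2 weeks, beside 7.68% of all genes, and 3 had at least 3 more, beside 6.82%. With fewer regions were the kinases Pik3cb, Pik3c2a, Pik3c2b, Pik3c2g, Pdpk1 and Sgk1, the subunit Rictor and the brakes Inpp4b, Phlpp1 and Deptor. With more were Akt2, Pik3r1 and Rptor. Counting any difference, 16 genes had fewer regions at 6 months, 7 more and 9 the same number, beside 26.6% of all genes with fewer and 17.4% with more, with a median of -0.5 regions against 0 over all genes. Long genes pass a fixed difference more easily, and no list of like length was set beside the pathway. At 6 months no gene of the pathway differed by 3 regions between Foxa2 and Foxa1, where 2.05% of all genes had at least 3 more and 2.38% at least 3 fewer Foxa2 regions.

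Among the kinases 9 of 14 had fewer Foxa1 regions at 6 months, 3 had more and 2 the same number, beside the same 26.6 and 17.4% of all genes with fewer and more. Their sum went from 72 regions at 2 weeks to 33 at 6 months, and 35 Foxa2 regions were assigned to them. Of the class I catalytic subunits, Pik3ca, the alpha subunit often mutated in tumors, had 6 Foxa1 regions at 2 weeks, 4 at 6 months and 6 Foxa2 regions. Pik3cb, the beta subunit, had 9, 2 and 3. Of its 9 regions at 2 weeks 1 had a counterpart in the 6-month Foxa1 list and 8 had none, where 26.2% of all 2-week regions had one. Its strongest at 2 weeks (chromosome 9, 99138451 to 99139639, -log10 q 32.2) lay 1.01 kb inside the gene and was present in all 3 lists. Its strongest at 6 months lay 82.1 kb inside (99057018 to 99059258, -log10 q 19.3 for Foxa1 and 19.1 for Foxa2), and at 2 weeks it overlapped a region of the full Foxa1 list only, below the strength kept.

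Of the Pik3cg regions at 2 weeks, 1 overlapped a 6-month Foxa1 region and 2 overlapped a Foxa2 region. At 6 months 3 of its Foxa1 regions overlapped a Foxa2 region. In the 3 lists Pik3cg had 6, 7 and 9 regions. This order rests on weaker and distant regions: the numbers were 6, 3 and 3 at a -log10 q of at least 5, 5, 2 and 1 at a fold enrichment of at least 5, and 6, 1 and 4 within 10 kb of the gene. In these 3 settings Pik3cg had at least 3 fewer Foxa1 regions at 6 months. The region in the gene's body at chromosome 12, 32186459 to 32189342, had rank 11 of the whole 2-week Foxa1 list (fold enrichment 22.2, -log10 q 114). It had no counterpart in the 6-month Foxa1 list, but a weak Foxa2 region of 6 months (32187588 to 32187932, -log10 q 4.14) lay within it. At 6 months 5 of the 7 Foxa1 regions lay more than 50 kb upstream of the gene, where the 2-week list had 0. The strongest of them (32275159 to 32276114) had a -log10 q of 30.8 for Foxa1 and 36.9 for Foxa2, where it had rank 338 of the list. Pik3cg was the nearest gene by the rule, and no data here link that site to it.

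The class II kinases make other inositol lipids and work mainly in membrane traffic. They had fewer regions at 6 months in each case: Pik3c2a 4, 0 and 0, Pik3c2b 6, 2 and 1, and Pik3c2g 8, 2 and 2. Pik3c3, the class III kinase of autophagy, had 2, 0 and 0. Pdpk1, which phosphorylates Akt, had 3, 0 and 0, all inside the gene. Mtor, the kinase of both mTOR complexes, had 1, 2 and 1, and Pik3cd, the delta subunit of white blood cells, had 0 in each.

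Akt1 had 2, 2 and 4 regions and Akt2 had 3, 7 and 5. Among the kinases these alone had a counterpart in both 6-month lists for every 2-week region, 2 of 2 at Akt1 and 3 of 3 at Akt2. The Akt2 promoter region at chromosome 7, 27590517 to 27591464, was among the 5 strongest Foxa2 regions of the pathway (-log10 q 23.3), and the Foxa1 regions there had a -log10 q of 18.5 at 2 weeks and 14.4 at 6 months. The 4 added Akt2 regions of the 6-month Foxa1 list were close neighbours of others, with 4 of 6 gaps under 1 kb, and the difference of at least 3 was kept in 2 of the 6 alternative settings. Among regions with a fold enrichment above 5 it was -1.

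Sgk1 encodes a glucocorticoid-induced relative of Akt that acts on ion transport and survival. It had 19 Foxa1 regions at 2 weeks, 3 Foxa1 regions at 6 months and 3 Foxa2 regions. Of the 19, 2 had a counterpart in the 6-month Foxa1 list and 1 in the Foxa2 list, beside 26.2 and 26.7% of all 2-week regions. In neither 6-month list were 17, and the covered length went from 14.3 kb to 2.07 and 1.87 kb. The site in all 3 lists lay 92.0 kb upstream of the outermost start site (chromosome 10, 21789640 to 21791309, -log10 q 44.2, 17.1 and 6.36). An equally strong site inside the gene (21936209 to 21937343, -log10 q 44.2) and the sites around the gene's far end, with -log10 q up to 29.1, were in the 2-week list alone. Internal RefSeq start sites of Sgk1, from 21978672 to 21994666, also lie at that end. The 2-week summits closest to them lay at -1.896 kb (-log10 q 14.98) and 0.181 kb (-log10 q 8.59). The site with 29.1 lay at 10.2 kb from the nearest start site. Sgk3, a relative of Sgk1, had 3, 2 and 1.

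**Figure D2:**
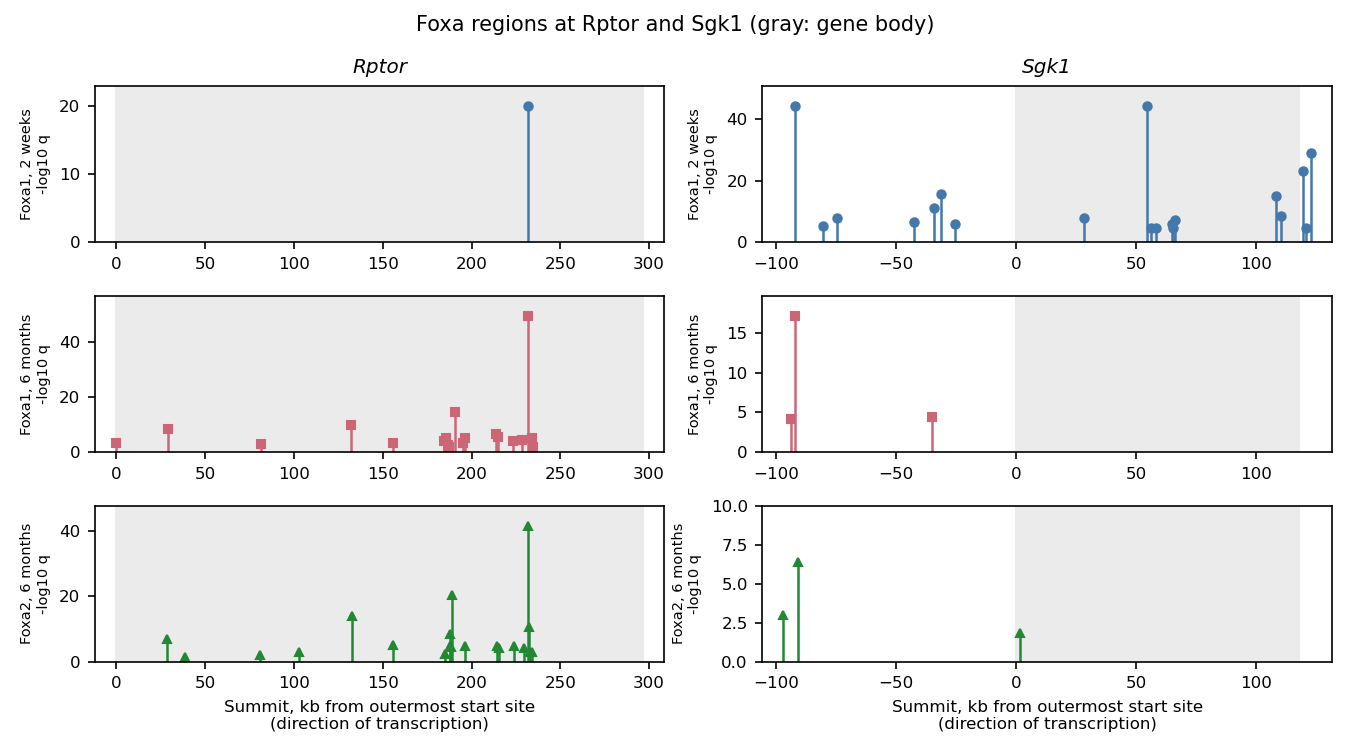
Regions at Rptor (left) and Sgk1 (right) in the 3 lists, by distance of the summit from the outermost start site in kb (horizontal axis) and by -log10 q (vertical axis, own scale in each panel), with the gene body in gray. The Rptor regions of 6 months gather beyond 150 kb around the single 2-week site, and the Sgk1 body is empty in the 6-month Foxa1 list.

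Subunits had no common direction: 3 of 10 had more Foxa1 regions at 6 months (17.4% of all genes), 2 had fewer (26.6% of all genes) and 5 the same number. Rptor encodes raptor, the scaffold of the growth-promoting mTOR complex. It had 1 Foxa1 region at 2 weeks, 19 Foxa1 regions at 6 months and 20 Foxa2 regions. The 2-week region (chromosome 11, 119834061 to 119834869, -log10 q 19.9) lay 232 kb inside the gene. At 6 months it sat within a region of 5338 bp (119831345 to 119836682, fold enrichment 9.43, -log10 q 49.3), the strongest Foxa1 region of the pathway at that time. The strongest Foxa2 region of the pathway (119832658 to 119834993, -log10 q 41.5) had its summit on the same base, 119834583. Around it, 15 of the 19 Foxa1 and 15 of the 20 Foxa2 regions lay beyond 150 kb from the start site, and 17 of the 20 Foxa2 regions had a Foxa1 counterpart at 6 months.

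Many of the Rptor regions were short neighbours, with 8 gaps under 1 kb in each 6-month list. Joining regions less than 1 kb apart left 1, 11 and 12. Above a -log10 q of 5, Rptor had 1, 9 and 6 regions, and above a fold enrichment of 5 its Foxa1 regions were equal in number at both times. In the full 2-week list Rptor had 3 regions, and the covered length was 0.809, 16.2 and 11.6 kb. The higher number at 6 months thus held in 5 of the 6 alternative settings, with the threshold on fold enrichment as the exception.

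Rictor, the scaffold of the mTOR complex that acts on Akt and Sgk kinases, stood the other way, with 3, 0 and 0 regions. Mlst8, shared by both complexes, and Rheb had 0 in each list. Pik3r1, the main regulatory subunit of class I PI3K, had 12, 16 and 14 regions. Its 2-week regions were spread over the gene and its far side, with a median gap of 12.2 kb. At 6 months the regions lay closer together, with median gaps of 1.00 kb for Foxa1 and 1.55 kb for Foxa2. Inside the gene lay 10 of 16 Foxa1 and 7 of 14 Foxa2 regions, mostly near its start. Upstream of the gene lay 5 Foxa1 and 6 Foxa2 regions. The strongest 6-month Foxa1 region lay 4.32 kb inside the gene (chromosome 13, 101762848 to 101764504, -log10 q 15.2) and was present in all 3 lists. Its higher number at 6 months turned into a lower one with full lists (19 against 16), with a -log10 q of at least 5 (12 against 7) and after joining neighbours (12 against 9).

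The other regulatory subunits had few regions. Pik3r5, a partner of Pik3cg, had 1 in each list, but not at 1 place: the 6-month site (chromosome 11, 68452185 to 68453725, -log10 q 17.5 for Foxa1 and 17.2 for Foxa2) had no counterpart at 2 weeks, when a site 56.5 kb inside the gene was listed (-log10 q 13.2). Pik3r6, its relative, had 1 Foxa2 region, Pik3r4, the partner of Pik3c3, had 1 Foxa1 region at 6 months, Pik3r3 had 2, 0 and 0, and Pik3r2 had 0.

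**Figure D3:**
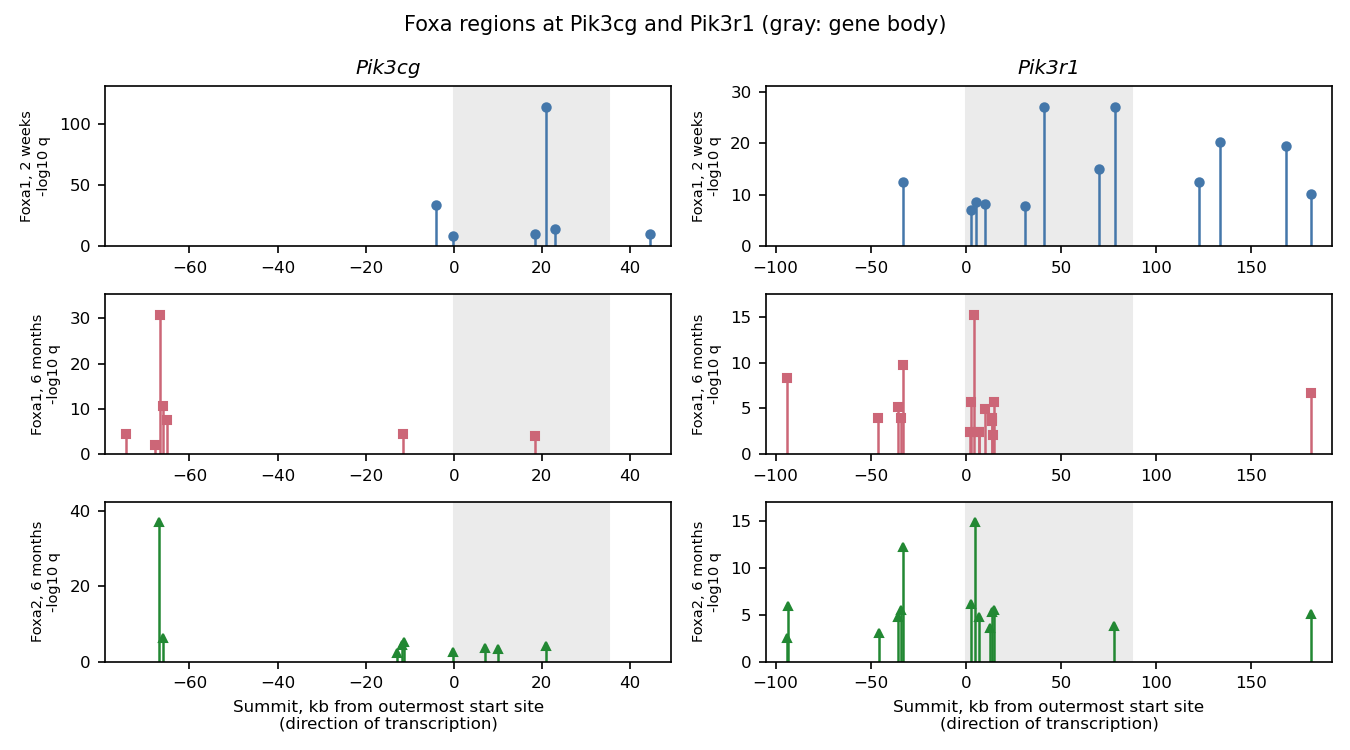
Regions at Pik3cg (left) and Pik3r1 (right) in the 3 lists, by distance of the summit from the outermost start site in kb and by -log10 q, with the gene body in gray and an own vertical scale in each panel. At Pik3cg the strongest site lies in the body at 2 weeks and about 66.7 kb upstream in the 6-month Foxa1 list, and at Pik3r1 most 6-month sites lie near the start of the gene or upstream of it.

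Of the 8 brakes, 5 had fewer Foxa1 regions at 6 months, 1 more and 2 the same number, again beside 26.6% of all genes with fewer and 17.4% with more. Phlpp1, a phosphatase that removes activating phosphate from Akt, had 15, 12 and 14 regions, the most of any brake. Of its 15 regions of 2 weeks 4 had a 6-month Foxa1 counterpart, where 26.2% of all 2-week regions had one. Among the 4 was a site 52.1 kb inside the gene with a -log10 q of 40.8, 10.4 and 7.11. Its strongest 2-week site, 149 kb inside (chromosome 1, 106319570 to 106321592, -log10 q 43.1), was in neither 6-month list. At 6 months 5 Foxa1 and 5 Foxa2 regions lay before the start of Phlpp1, against 2 at 2 weeks. Its relative Phlpp2 had 1, 0 and 0.

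Inpp4b, a lipid phosphatase known as a tumor suppressor of the prostate, had 6, 2 and 1 regions in a gene of 792 kb. Its strongest site at 2 weeks (chromosome 8, 81710454 to 81711648) had a -log10 q of 58.2, and the 6-month Foxa1 region there had 4.50. Inpp4a, its relative, had 1, 2 and 3, and Inpp5d, the lipid phosphatase of blood cells, had 0 in each. Deptor, an inhibitor that binds mTOR itself, had 14, 7 and 7, of which 12, 7 and 7 lay inside the gene. Its strongest site (chromosome 15, 55132206 to 55134901) was present in all 3 lists, with a -log10 q of 75.5, 20.8 and 19.2. Of its 14 regions at 2 weeks 4 had a counterpart in each 6-month list, where 26.2% (Foxa1) and 26.7% (Foxa2) of all 2-week regions had one. In neither 6-month list were 10. Tsc2 had 1, 0 and 1 at separate places, and Tsc1, its partner, had 0.

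Set side by side, kinases had more regions per Mb of territory than all brakes together in each list: 35.5 against 20.3 for Foxa1 at 2 weeks, 16.3 against 12.3 for Foxa1 at 6 months and 17.2 against 13.9 for Foxa2. The 2 kinds of brake stood apart. Phosphatases had 14.4, 10.0 and 11.3 per Mb, below the kinases in each list. The 3 other brakes had 53.8, 25.1 and 28.7, above the kinases in each list. Of their 15, 7 and 8 regions, Deptor held 14, 7 and 7. Of the kinase and brake regions, brakes held 38 of 110 at 2 weeks (34.5%, interval 25.7 to 44.2%), 23 of 56 in the 6-month Foxa1 list (41.1%, 28.1 to 55.0%) and 26 of 61 in the Foxa2 list (42.6%, 30.0 to 55.9%). Brakes made up 48.0% of the territory, a value above the 2-week interval and inside both 6-month intervals. The 3 intervals overlapped. They count each region as separate, although regions of 1 gene cluster and Sgk1 alone held 19 of the 72 kinase regions at 2 weeks. The order at 6 months rested on Inpp4b: without it brakes had 32.5, 21.3 and 25.4 regions per Mb, above the kinases in both 6-month lists and below them at 2 weeks, and the brakes' shares of 30.8, 38.9 and 41.7% stood beside 32.6% of the territory. Without Sgk1 kinases had 29.79, 16.86 and 17.99 per Mb. The brakes' share at 2 weeks was then 41.8% (31.5 to 52.6%), and their 51.3% of the territory lay inside this interval. Without both genes the order turned at 2 weeks too, with 29.79 regions per Mb for kinases and 32.5 for brakes, and the brakes' shares of 37.6, 41.2 and 43.9% stood beside 35.6% of the territory. Other omissions widened the gap: brakes without Phlpp1 had 15.2, 7.28 and 7.94 per Mb, and kinases without Pik3c2g 39.8, 19.3 and 20.5. Subunits had 16.0, 31.1 and 30.3 per Mb, and without Rptor 21.0, 21.0 and 18.6.

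**Figure D4:**
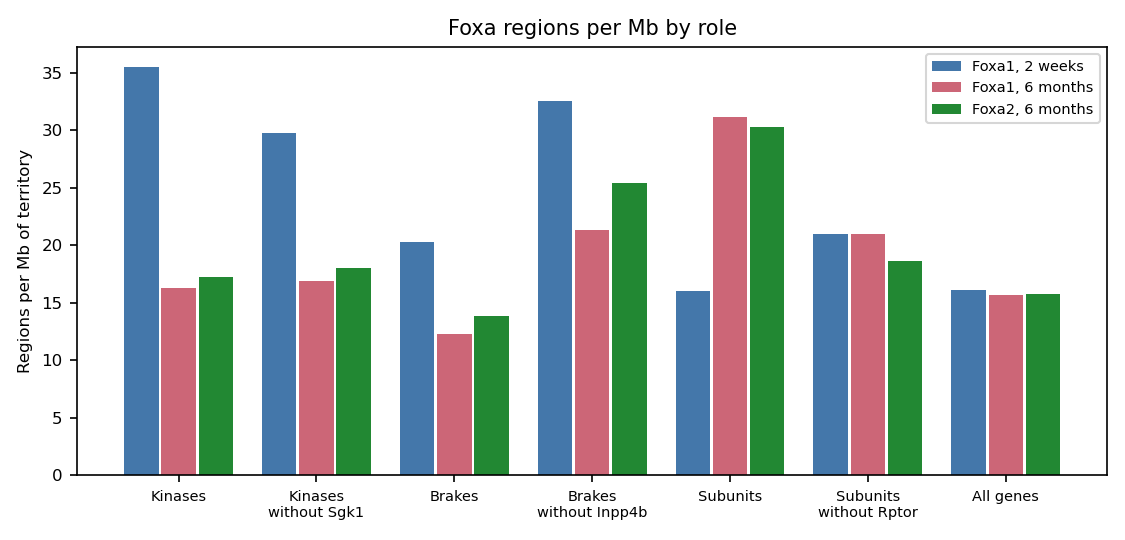
Regions per Mb of territory (vertical axis) for kinases, brakes and subunits, for each class without 1 gene, and for all protein-coding genes, in the 3 lists; each bar is 1 library. Brakes without Inpp4b stand at 21.3 and 25.4 at 6 months, above the kinases, and subunits without Rptor stand at 21.0 in both Foxa1 lists.

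Sites of the pathway overlapped between the lists about as often as all sites did. Of the 129 Foxa1 regions at 2 weeks, 30 overlapped a 6-month Foxa1 region (23.3%, 16.3 to 31.5%), beside 26.2% of all regions. Of the 93 Foxa1 regions at 6 months, 30 overlapped a 2-week region (32.3%, 22.9 to 42.7%), beside 29.6%. By role the first share was 18.1% for kinases (13 of 72), 31.6% for subunits (6 of 19) and 28.9% for brakes (11 of 38), with overlapping intervals. The second was 42.4, 18.9 and 39.1%, and for subunits 33.3% without Rptor, whose regions were 18 of 19 without a 2-week counterpart.

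At 6 months, 57 of 93 Foxa1 regions overlapped a Foxa2 region (61.3%, 50.6 to 71.2%), beside 64.2% of all, and 65 of 97 Foxa2 regions overlapped a Foxa1 region (67.0%, 56.7 to 76.2%), beside 68.9%. The second share was 57.1% for kinases, 83.3% for subunits (81.3% without Rptor) and 57.7% for brakes. The subunit value describes mainly 2 genes: of 36 regions, Rptor held 20 (17 shared) and Pik3r1 14 (12 shared). The 6-month Foxa1 regions were thus shared more often with Foxa2 of the same time than with Foxa1 of 2 weeks. All 6-month Foxa1 regions had the same order, with 64.2 against 29.6%. The 2-week list was cut at a higher -log10 q, and 40.9% of the pathway's 6-month Foxa1 regions overlapped the full 2-week list. Of the Foxa2 regions 27.8% overlapped a 2-week Foxa1 region, beside 30.6% of all.

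**Figure D5:**
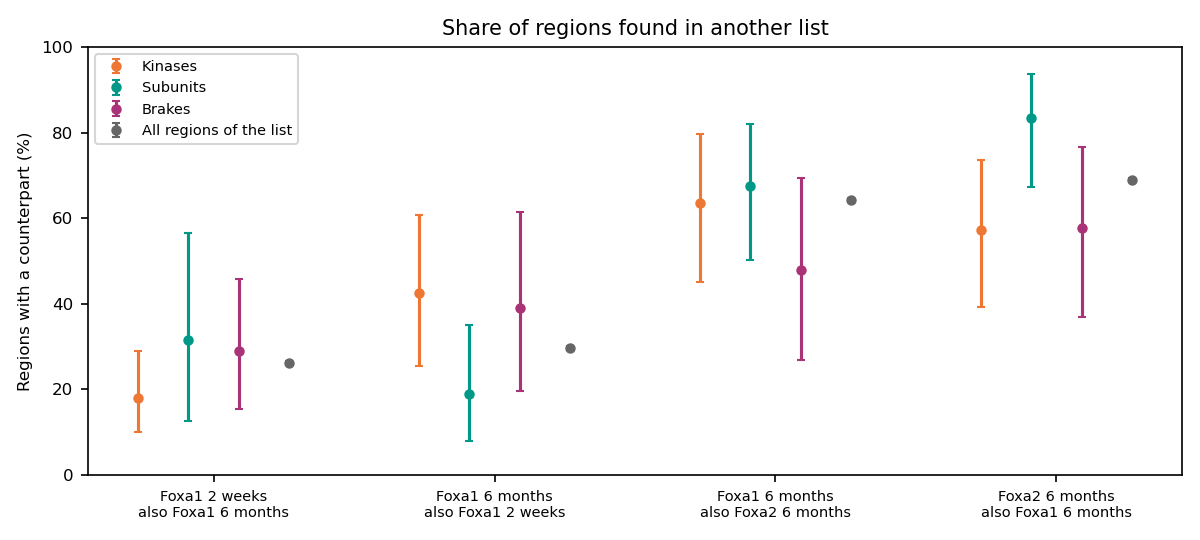
Share of regions with a counterpart in another list (vertical axis, %), for kinases, subunits, brakes and all regions of the list, with exact 95% intervals for counting error. For Foxa2 regions also bound by Foxa1 at 6 months, subunits stand at 83.3%, kinases at 57.1% and brakes at 57.7%, beside 68.9% of all regions. Nearly all of these subunit regions belong to Rptor and Pik3r1.

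The regions of the pathway were of ordinary strength. Their median -log10 q was 10.1, 4.35 and 4.19, beside 10.1, 4.46 and 4.51 over the lists, and 10, 8 and 9 of them were in the strongest 10% of their list. Inside the gene lay 75.2, 73.1 and 76.3% of them, against 62.5, 66.6 and 66.5% of all regions assigned to a gene, and the pathway's genes are longer than most. Within 1 kb of a RefSeq start site lay 5 of 110, 5 of 84 and 6 of 88 regions at genes with a promoter entry. This was not counted over all regions, so these numbers stand without a comparison. At the limit of 100 kb, the farthest region counted lay 93.9 kb from Pik3r1 at 2 weeks, 94.0 kb from Pik3r1 in the 6-month Foxa1 list and 97.0 kb from Sgk1 in the Foxa2 list. The nearest left out lay 125 kb from Pik3c3 in each list.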

How the data were processed

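Per the submitters' processing notes, the build was mm10 and the tools were MACS2 2.1.1, Bowtie2, HOMER, Trim Galore 0.5.0, bedtools 2.25.0, DiffBind 2.12.0 and deepTools 3.2.1. What each tool did, its settings and any use of the input as control were not stated in the sources used here. Each deposited peak list holds 1 library, so the authors called peaks per library. In the deposited lists each peak has the authors' fold enrichment (a ratio over local background), the -log10 of its p-value and q-value, and a score made from the -log10 q (multiplied by 10 and cut to a whole number). These values describe and rank peaks within a list.

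Only the chromosomes 1 to 19, X and Y entered, which left out 12 Foxa1 regions of 2 weeks, 2 Foxa1 regions of 6 months and 3 Foxa2 regions of 6 months. Input libraries were not analysed here. Gene positions came from the RefSeq gene table of GRCm38.p6. A gene's territory is its body plus up to 100 kb on each side, shared equally with its neighbour. Lists overlapped where regions shared at least 1 bp. All 32 genes are reported in every list, with the 5 strongest regions of each list by position. The genes, their roles and the other lists were chosen with earlier results of these data known. No genome was used, so exons and introns and the sequences of distant regions are not described. Python 3.11.15, numpy 2.4.6, pandas 2.3.3, scipy 1.17.1 and matplotlib 3.10.9 were used. Shifted copies of regions of the 2-week Foxa1 list were planted as a second list, and all 16258 planted overlaps were recovered. For regions of that list, 2000 of 2000 gene assignments matched a direct search. The reciprocal and summit definitions of overlap were not checked this way. Alternatives were full lists, thresholds of 5 on -log10 q or fold enrichment, joining regions less than 1 kb apart, gene bodies alone or with 10 kb, a reciprocal overlap of 50% and summits within 200 bp. Leaving out Inpp4b, Sgk1 or Rptor was chosen after seeing the values. Pik3c2g and Phlpp1 were also left out in turn for the regions per Mb.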

Additional observations from a re-analysis of the deposited data

How the results depend on the processing

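With 1 library in each group, no library could be left out. No paired analysis was possible because each group holds 1 library and no test was made. Under the alternatives, 103 values for the whole set stayed near the reported one, every share of brakes among them, and 32 moved. Values counted as near still varied. The brakes' share at 2 weeks ran from 29.4 to 41.8%, and the fold threshold left only 9 and 8 kinase and brake regions in the 6-month lists. At a -log10 q of at least 5, 13 genes had a 6-month Foxa1 region (24.5% of all genes). At a fold enrichment of at least 5, 9 genes had a 6-month Foxa1 region and 8 a Foxa2 region (13.5 and 16.4% of all genes). Genes with at least 3 more Foxa1 regions at 6 months numbered 1 with full lists, 1 at a -log10 q of at least 5, 0 at a fold of at least 5 and 1 after joining neighbours, beside 4.81, 1.54, 0.274 and 2.65% of all genes. At least 3 more Foxa2 than Foxa1 regions were held by 1 gene after joining (Phlpp1; 1.24% of all genes), 1 with gene bodies alone (Akt1; 1.30%) and 1 within 10 kb (Pik3cg; 1.52%). At least 3 fewer were held by 1 gene at a -log10 q of at least 5 (Rptor; 0.790% of all genes) and by 1 gene with bodies alone or within 10 kb (Pik3r1; 1.64 and 1.88%).

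Shares with a counterpart moved with the definition of overlap and with the thresholds. The share of 2-week Foxa1 regions found in 6-month Foxa1 was 7.75% with a reciprocal overlap of 50%, 14.7% with summits within 200 bp, 15.3% at a -log10 q and 9.52% at a fold of at least 5. The reverse was 10.8% (reciprocal), 20.4% (summits), 50.0% (fold) and 45.0% (joined). Foxa1 in Foxa2 at 6 months was 37.6% (reciprocal), 41.9% (summits), 75.0% (fold) and 71.7% (joined), and the reverse 36.1% (reciprocal) and 39.2% (summits). Foxa2 in 2-week Foxa1 was 11.3% (reciprocal), 43.2% (-log10 q) and 50.0% (fold), and the reverse 8.53, 13.6 and 11.1%.

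The difference in Foxa1 regions reversed for Akt2 (-1 at a fold of at least 5) and for Pik3r1 (-3 with full lists, -5 at a -log10 q of at least 5, -7 at a fold of at least 5, -3 after joining). Smaller differences of 1 region also changed sign: Pik3cg was at -2 with full lists and with bodies alone, -3 at either threshold and -5 within 10 kb, Mtor at -1 at the -log10 q threshold, and Inpp4a at -1 at either threshold. The cause was not tested. Fewer Foxa1 regions at 6 months, by at least 3, were found in all 6 settings for Pik3cb, Pik3c2a, Pik3c2b, Pik3c2g and Sgk1. The equal-length lists reach weaker regions at 6 months, while full lists and fixed thresholds keep more regions at 2 weeks.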

Other observations

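A wider list of 49 genes around the pathway, all found in the gene table, had 117 Foxa1 regions at 2 weeks, 95 Foxa1 regions at 6 months and 99 Foxa2 regions. In each list 27 of the 49 had a region, beside 43.0, 33.5 and 35.4% of all genes, with a median of 1. Between the Foxa1 lists 5 of them had at least 3 more regions at 6 months (6.82% of all genes) and 6 at least 3 fewer (7.68%). With more were Mapkap1, a subunit of the Rictor-containing complex (6 and 9 regions), Ulk1, the autophagy kinase that mTOR restrains (2 and 6), Tfeb, the lysosomal transcription factor that mTOR keeps out of the nucleus (1 and 4), Sesn3, a sestrin that restrains mTOR (8 and 14), and Grb10, an adaptor that dampens insulin receptor signalling (0 and 5). With fewer were Prkca, a protein kinase C (26 and 9), Pik3ap1, an adaptor that recruits PI3K (11 and 5), Gsk3b, a kinase that Akt inhibits (10 and 6), Synj2, an inositol lipid phosphatase (8 and 4), Pik3ip1, an inhibitor of PI3K (5 and 1), and Sesn1 (5 and 1).

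Between Foxa2 and Foxa1 at 6 months, 2 had at least 3 more (2.05% of all genes) and 1 at least 3 fewer (2.38%). Inppl1, a lipid phosphatase related to Inpp5d, had 6 Foxa2 and 3 Foxa1 regions. Inpp5f, also a lipid phosphatase, had 3 and 0. Pik3ap1 had 2 and 5. The highest numbers in any 1 list were 26 (Prkca), 14 (Sesn3) and 11 (Pik3ap1 and Mapkap1).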
